A study of Homo sapiens with 18 samples.

Results

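In total 10 cytokine and chemokine genes that B cells can express were followed through JIB-04 treatment of 2 human lymphoma lines. They were the chemokines CCL3, CCL4 and CCL22, the tumour necrosis factor family genes LTA, LTB and TNF, the interleukins IL10, IL6 and IL16, and the growth factor TGFB1. All 10 were found by symbol among the 23686 genes of the deposited tables. RNA was sequenced from OCI-Ly1, a germinal-centre type of diffuse large B-cell lymphoma line grown in IMDM, and from TMD8, an activated-B-cell type of line grown in RPMI 1640. Each line received the vehicle, 0.01% DMSO, or JIB-04 at 150 nM or 500 nM, which gave 6 groups of 3 libraries. JIB-04 is a small molecule that inhibits Jumonji-domain histone demethylases, and the series' title places it in work on heterochromatin in lymphoma. Per the labels the 3 libraries of a group were made as technical replicates. Neither the treatment time nor separate cultures are stated, so the p-values measure only the spread between these libraries.

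Cytokines and chemokines are short-range protein signals that act through receptors on nearby cells. In B cells many of their genes are switched on downstream of the B-cell receptor and of Toll-like receptors through the transcription factor NF-kB, and their mRNAs are often short-lived. Lymphotoxins shape lymphoid tissue, CCL3, CCL4 and CCL22 draw in T cells and other leukocytes, IL10 and TGFB1 restrain immune responses, and IL6 drives B-cell and plasma-cell growth.

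Values below are TMM-normalised read counts per 1000000 (CPM), given for libraries 1, 2 and 3 of a group in that order. A gene was called higher or lower at an adjusted p under 0.05 in edgeR's quasi-likelihood test over all genes of a line. OCI-Ly1 libraries held between 17579732 and 32651115 estimated counts and TMD8 libraries between 9550092 and 20509500, so that 3 counts, taken as the detection floor, equalled 0.0894 to 0.176 CPM and 0.149 to 0.307 CPM. All 7 B-lineage markers checked, among them MS4A1 and PAX5, had more than 3 counts in every library. They summed to 1364 to 1405 CPM with DMSO and 1223 to 1274 CPM at 500 nM in OCI-Ly1, and to 2920.0 to 3112 CPM and 2521 to 2562 CPM in TMD8. The 5 NK-cell markers summed to 45.2 to 49.5 CPM and 37.2 to 41.4 CPM in OCI-Ly1, and to 14.9 to 16.3 CPM and 16.2 to 18.8 CPM in TMD8. T-cell markers were not all absent. In OCI-Ly1 the 6 markers summed to 22.1 to 24.8 CPM with DMSO and to 9.77 to 10.7 CPM at 500 nM. Over the libraries of that line CD3G had 156 to 322 counts, CD3D 52 to 144 and CD3E 8 to 15. In TMD8 the T-cell markers summed to 36.02 to 37.7 CPM with DMSO and to 23.4 to 27.3 CPM at 500 nM. There CD3E was at 0 and CD3D and CD2 at no more than 2 counts, while CD3G (26 to 51 counts), CD5 and CD28 were detected. The 7 myeloid markers summed to 4.88 to 5.75 CPM with DMSO and 3.03 to 3.79 CPM at 500 nM in OCI-Ly1, and to 24.8 to 28.4 CPM and 22.7 to 24.7 CPM in TMD8, where MPO did not exceed 3 counts in any library. Plasma-cell markers summed to 431 to 475 CPM with DMSO and 665 to 701 CPM at 500 nM in OCI-Ly1, and to 3102 to 3379 CPM and 2286 to 2298 CPM in TMD8. In TMD8 a single gene carried most of the plasma-cell sum (IRF4, 1732 to 2902 CPM) and of the T-cell sum (CD5, 18.3 to 34.5 CPM). At 500 nM there, 4 of 6 plasma-cell markers were called higher and 1 lower. Of 3 T-cell markers tested, 1 was higher and 1 lower, where 29.9% of all genes were higher and 30.7% lower. In OCI-Ly1 at that dose all 6 T-cell markers were tested, with 0 higher and 4 lower. Of 5 plasma-cell markers tested in OCI-Ly1, 3 were higher and 1 lower, where 27.7% of all genes were higher and 25.9% lower. The part of these marker shifts in the results was not tested, and in bulk RNA fewer cells of a type cannot be told apart from less RNA per cell. The first DMSO library of TMD8 stood apart from the other libraries of its group, with a chi-square per degree of freedom of 10.3 and 10.9 against them and 1.90 between those. Pairs within the OCI-Ly1 groups ranged from 4.33 to 9.85, so libraries of that line also differed, and the remaining TMD8 pairs from 1.62 to 6.08.

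With DMSO alone the lines differed widely. In OCI-Ly1 no count of CCL3, CCL4 or IL6 was seen in any DMSO library, and the highest count of any of these genes in the 9 libraries of the line was 1. These 3 genes were therefore at the floor throughout OCI-Ly1 and were not tested within that line. In TMD8 every member had more than 3 counts in every library. Relative to the floor of 3 counts per OCI-Ly1 library, the TMD8 DMSO mean was at least 2.98-fold higher for CCL3, at least 2.49-fold higher for CCL4 and at least 25.6-fold higher for IL6.

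Of the 10 members, 8 were lower and 1 was higher in OCI-Ly1 than in TMD8 with DMSO, in the fit of all 18 libraries. Over all 16604 genes tested there, 76.7% were called, 39.0% lower and 37.8% higher. CCL3, CCL4 and IL6 had no counts in OCI-Ly1 with DMSO and passed the filter of this fit only through TMD8. Lower was thus their only possible call, and these calls add no support to the count. TNF differed most among the members detected in both lines, with a log2 difference (OCI-Ly1 minus TMD8) of -7.37 ± 0.16 (SE, adjusted p = 1.4e-24). IL10 differed by -4.61 ± 0.11, TGFB1 by -3.39 ± 0.07, LTA by -3.22 ± 0.14 and CCL22 by -2.80 ± 0.09. The one gene that was higher in OCI-Ly1, LTB, differed by 0.49 ± 0.16 (adjusted p = 0.009), which fell to 0.21 (adjusted p = 0.099) without the first TMD8 DMSO library. IL16, a T-cell attractant, differed by -0.10 ± 0.06 and was not called. Cell line and growth medium cannot be told apart in this comparison.

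Levels between genes were compared within a line by TPM, transcripts per 1000000, which accounts for transcript length. In OCI-Ly1 with DMSO the mean TPM was 23.1 for LTB, 17.3 for IL16, 12.4 for TGFB1, 2.78 for CCL22, 1.96 for LTA, 1.70 for IL10 and 0.362 for TNF. Only LTA and IL10 overlapped among neighbours in this order. In TMD8 with DMSO TGFB1 led at 66.7 TPM, followed by TNF at 32.7 and IL10 at 21.4. CCL22 (9.82 TPM), IL16 (9.57), LTA (9.17) and LTB (7.75) overlapped each with the next, and IL6 at 3.05 TPM lay above CCL4 (0.608) and CCL3 (0.570), which overlapped. At 500 nM the order in TMD8 was TNF (39.1 TPM) and TGFB1 (37.5), which overlapped, then LTB (26.4) and LTA (21.7), which also overlapped. LTB was the seventh of the members with DMSO and the third at 500 nM.

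LTA, TNF and LTB lie side by side on chromosome 6, in the major histocompatibility complex. LTA encodes lymphotoxin-alpha, which is secreted as a homotrimer, and LTB encodes the membrane partner that anchors lymphotoxin to the cell surface. The 250 bases before 1 annotated start of each are shown because these neighbours moved in the same direction in TMD8. They were taken from RefSeq on GRCh38.p14, whereas the submitters' processing notes name hg19. Windows were chr6:31572039-31572288 (plus strand, the downstream of 2 LTA starts), chr6:31575315-31575564 (plus strand, TNF) and chr6:31582426-31582675 (minus strand, LTB), each written 5′ to 3′ along the gene.
LTA: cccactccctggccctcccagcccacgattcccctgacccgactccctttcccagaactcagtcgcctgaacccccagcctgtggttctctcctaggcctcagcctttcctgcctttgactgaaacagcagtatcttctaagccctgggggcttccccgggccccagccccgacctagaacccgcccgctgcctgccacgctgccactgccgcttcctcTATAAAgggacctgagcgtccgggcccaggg
TNF: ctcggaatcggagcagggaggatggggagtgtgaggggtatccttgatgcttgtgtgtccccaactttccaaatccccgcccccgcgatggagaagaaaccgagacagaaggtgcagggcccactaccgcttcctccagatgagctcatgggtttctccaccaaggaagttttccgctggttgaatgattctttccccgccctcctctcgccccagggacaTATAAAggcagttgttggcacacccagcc
LTB: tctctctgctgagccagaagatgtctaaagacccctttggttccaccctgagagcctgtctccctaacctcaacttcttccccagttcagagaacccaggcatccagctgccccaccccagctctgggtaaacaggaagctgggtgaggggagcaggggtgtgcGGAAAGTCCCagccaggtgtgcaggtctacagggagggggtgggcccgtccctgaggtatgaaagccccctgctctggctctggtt
Capitals mark matches to 4 motifs searched on both strands: the TATA box TATAAA, an NF-kB site (GGGA, any base, then TTTCC), an AP-1 site TGANTCA and a C/EBP-ATF site TGATGNAA. The LTA and TNF windows each held TATAAA, from 31 to 26 and from 29 to 24 bases before the start, a motif found in 10.7% of 35116 RefSeq promoter windows of this length. The LTB window held GGAAAGTCCC, an NF-kB match on the opposite strand, from 86 to 77 bases before the start. That motif was in 0.527% of the windows, and among the members only IL6 also had it, as GGGATTTTCC from 73 to 64 bases before its start. A looser NF-kB form (GGG, any 5 bases, then CC), of which the stricter form is a special case, was in 54.4% of all windows and is not marked. It was in the LTA (5 matches), TNF (1) and LTB (7) windows. Each strand and each overlapping position was counted, so the same stretch of bases can count more than once. The window at the other LTA start held none of the 4 marked motifs. Windows were found for 9 of the 10 members, not for CCL4.

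LTA rose in both lines at 500 nM and in TMD8 already at 150 nM. In OCI-Ly1 it stood at 1.86, 2.46 and 1.65 CPM with DMSO, 1.21, 2.10 and 1.28 CPM at 150 nM, and 6.85, 6.58 and 5.57 CPM at 500 nM. The 500 nM libraries lay above all others, while those at 150 nM overlapped DMSO. The rise at 500 nM was 3.22-fold (log2 1.69 ± 0.21, SE, adjusted p = 2.4e-06), and at 150 nM the log2 change of -0.35 ± 0.24 was not called (adjusted p = 0.67). In TMD8 LTA was at 16.6, 16.3 and 17.2 CPM with DMSO, 45.8, 47.5 and 48.7 CPM at 150 nM, and 48.4, 47.0 and 57.6 CPM at 500 nM. Both doses lay above DMSO and overlapped each other. The rise was 2.84-fold at 150 nM (log2 1.50 ± 0.08, adjusted p = 3.6e-10) and 3.04-fold at 500 nM (log2 1.60 ± 0.08, adjusted p = 1.3e-11), and the step between the doses, 0.10 ± 0.07, was not called.

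LTB rose in TMD8 at both doses. Its TMD8 values were 4.44, 9.59 and 10.8 CPM with DMSO, 23.9, 24.4 and 28.7 CPM at 150 nM, and 34.1, 37.1 and 35.5 CPM at 500 nM. The 3 groups did not overlap, and the first DMSO library, which stood apart in general, was the lowest. LTB rose 3.05-fold at 150 nM (log2 1.61 ± 0.17, adjusted p = 9.7e-07) and 4.20-fold at 500 nM (2.07 ± 0.17, adjusted p = 8.7e-09). Without that library the log2 rises were 1.34 and 1.79, both still called, against 1.50 and 1.60 for LTA. The step from 150 to 500 nM, 0.46 ± 0.15 (adjusted p = 0.026), lost its call without any of the 6 libraries but 150 nM library 3 (0.41 to 0.49, adjusted p = 0.053 to 0.089), and with DESeq2. In OCI-Ly1 LTB was at 12.1, 14.1 and 12.5 CPM with DMSO, 11.1, 9.95 and 9.79 CPM at 150 nM, and 17.3, 16.5 and 14.2 CPM at 500 nM. The lowest group was that at 150 nM and the highest that at 500 nM, which overlapped neither of the others. The 150 nM change of -0.32 ± 0.11 was not called (adjusted p = 0.26), and the 500 nM rise of 0.31 ± 0.10 was (adjusted p = 0.016). Its call was lost without DMSO library 1 (0.26, adjusted p = 0.074) or 3 (0.29, adjusted p = 0.054), and without 500 nM library 1 (0.25, adjusted p = 0.093) or 2 (0.29, adjusted p = 0.055). Between the doses LTB rose by 0.64 ± 0.10 (adjusted p = 8.5e-05).

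TNF, the proinflammatory cytokine of the family, was abundant in TMD8 and scarce in OCI-Ly1. TMD8 had 76.6, 70.2 and 67.5 CPM with DMSO, 119, 128 and 130.2 CPM at 150 nM, and 113, 108 and 113 CPM at 500 nM. The DMSO libraries were lowest and those at 150 nM highest, with no overlap between any 2 groups. TNF rose 1.76-fold at 150 nM (log2 0.82 ± 0.05, adjusted p = 5.5e-09) and 1.56-fold at 500 nM (0.64 ± 0.06, adjusted p = 1.7e-08). In TPM the 500 nM libraries, at 37.2 to 42.0, overlapped those with DMSO, at 28.9 to 38.3, and those at 150 nM stood above both, at 49.8 to 54.4. On log2(TPM + 1) the median of all genes moved by -0.22 at 500 nM, against 0.04 in the edgeR fit. From 150 to 500 nM it fell by 0.18 ± 0.05 on the log2 scale (adjusted p = 0.02), a call lost without 150 nM library 2 (-0.17, adjusted p = 0.072) or 500 nM library 2 (-0.15, adjusted p = 0.1). In OCI-Ly1 the DMSO libraries held only 18, 5 and 8 counts of TNF, those at the lower dose 22, 15 and 6, and those at the higher dose 43, 35 and 20. In CPM these were 0.714, 0.293 and 0.323, then 0.888, 0.619 and 0.319, then 1.28, 1.36 and 0.659, and the groups overlapped. All 3 libraries reached the low-count filter of 0.399 CPM only in the 500 nM group, though DMSO library 1 and 150 nM libraries 1 and 2 also reached it. At 500 nM the gene was called higher (log2 1.25 ± 0.44, adjusted p = 0.022). That call was lost without DMSO library 2 (1.06, adjusted p = 0.073) or 3 (1.04, adjusted p = 0.091), and without 500 nM library 1 (1.12, adjusted p = 0.081) or 2 (1.08, adjusted p = 0.075).

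**Figure D1:**
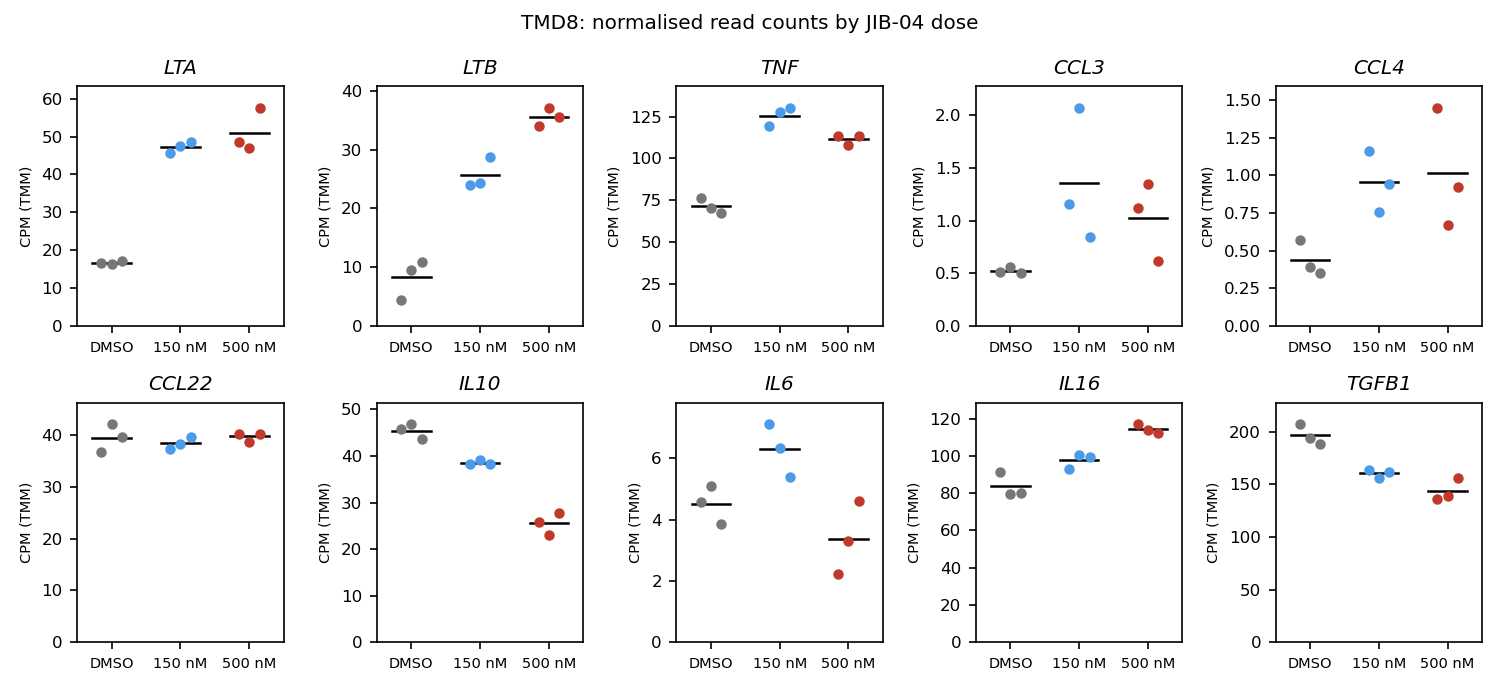
CPM (vertical axis, from 0, its own scale in each panel) of the 10 members in TMD8 by JIB-04 dose; dots are libraries 1 to 3 from left to right and bars the mean of 3. LTA and LTB sat at 16.3 to 17.2 and 4.44 to 10.8 CPM with DMSO, below every treated library, while IL10 and TGFB1 stepped down.

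The gene next to LTA on the other side, NFKBIL1, also rose. Its mean was 9.90 ± 0.44 CPM with DMSO and 18.03 ± 2.2 CPM at 500 nM in OCI-Ly1 (SD, n = 3), a log2 rise of 0.86 (adjusted p = 2.1e-06). In TMD8 it went from 6.64 ± 1.23 CPM with DMSO to 9.84 ± 1.38 CPM (150 nM) and 10.8 ± 1.24 CPM (500 nM), by 0.57 (adjusted p = 0.0031) and 0.69 (adjusted p = 4.4e-04). LST1, next to LTB, was too low to be tested in either line. Neighbours of other members called at 500 nM did not all move with them. In OCI-Ly1 PLLP rose by 1.81 (adjusted p = 8.7e-05) beside CCL22, which fell, and CCDC97 rose by 0.49 beside TGFB1, which also rose. TOMM7, beside IL6, fell there by 0.39. In TMD8 CCDC97 (0.34, adjusted p = 1.4e-04) and B9D2 (0.38, adjusted p = 0.035) rose on either side of TGFB1, which fell. MAPKAPK2 rose there by 0.25 beside IL10, which fell.

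CCL3 and CCL4 encode inflammatory chemokines that are made by B cells after receptor stimulation. Both were rare in TMD8, and both have near-identical gene copies between which reads can be divided, so the single rows are uncertain. CCL3 was at 0.508, 0.561 and 0.503 CPM with DMSO, 1.16, 2.07 and 0.843 CPM at 150 nM, and 1.12, 1.35 and 0.614 CPM at 500 nM. CCL4 was at 0.571, 0.392 and 0.352 CPM, then 1.16, 0.760 and 0.943 CPM, then 1.45, 0.673 and 0.921 CPM. All treated libraries lay above those with DMSO for both genes. Both passed the low-count filter of 0.676 CPM only through treated groups, CCL3 through that at 150 nM and CCL4 through both, so their calls are given as a description. The log2 changes were 1.32 ± 0.38 and 1.01 ± 0.41 for CCL3 at 150 and 500 nM (adjusted p = 0.0083 and 0.04), and 1.13 ± 0.37 and 1.25 ± 0.38 for CCL4 (adjusted p = 0.02 and 0.0083). At 150 nM the CCL3 call was lost without 150 nM library 2 (0.89, adjusted p = 0.078), and the CCL4 call without DMSO library 2 (adjusted p = 0.059) or 3 (adjusted p = 0.076) or 150 nM library 1 (adjusted p = 0.067). At 500 nM the CCL4 call was lost without 500 nM library 1 (0.84, adjusted p = 0.12).

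The rows of the copies held part of the reads. CCL4L1 and CCL4L2 had equal estimated counts in all 9 libraries of each line, and reads of the CCL3 family went to CCL3L3 in 7 TMD8 libraries and to CCL3L1 in 500 nM libraries 2 and 3. Summed with CCL3L1 and CCL3L3, CCL3 had 0.675 ± 0.022 CPM with DMSO, 2.54 ± 0.79 at 150 nM and 2.003 ± 0.379 at 500 nM (SD, n = 3). CCL4 with CCL4L1 and CCL4L2 had 0.708 ± 0.271, 2.52 ± 0.17 and 2.60 ± 0.47 CPM. The summed log2 changes were 1.89 and 1.58 for CCL3 (adjusted p = 3.4e-05 and 1.9e-04) and 1.84 and 1.89 for CCL4 (adjusted p = 3.0e-05 and 1.1e-05). With DMSO not every summed library reached 0.676 CPM either, so these too are a description. The single-row call of CCL3 at 500 nM was lost without any of the 6 libraries but 500 nM library 3 (0.79 to 1.06, adjusted p = 0.066 to 0.18). In OCI-Ly1 the summed counts of either family did not exceed 1 in any library.

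**Figure D2:**
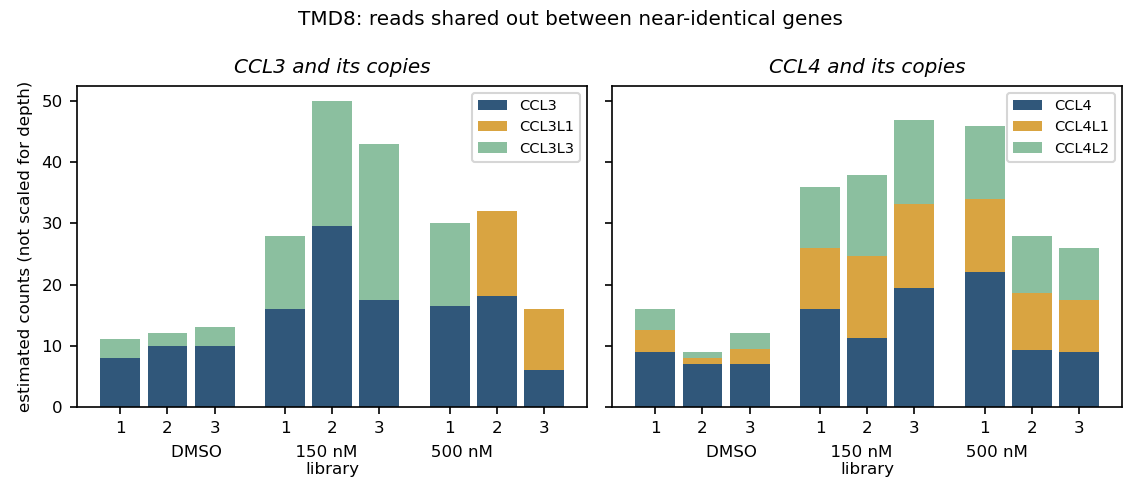
Estimated counts in each TMD8 library (vertical axis, not scaled for depth), stacked over CCL3, CCL3L1 and CCL3L3 on the left and CCL4, CCL4L1 and CCL4L2 on the right. Family totals were 11 to 13 and 9 to 16 with DMSO and 16 to 50 and 26 to 47 in treated libraries, and the CCL3 copy that received reads changed between libraries.

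CCL22, a ligand of CCR4 that attracts regulatory and helper T cells, fell at 500 nM in OCI-Ly1 and was not called in TMD8. OCI-Ly1 values were 6.11, 7.10 and 5.41 CPM with DMSO, 5.29, 5.20 and 5.69 CPM at 150 nM, and 3.63, 4.10 and 4.54 CPM at 500 nM. Those at 500 nM lay below all others, and the change from DMSO was -0.59 ± 0.15 (adjusted p = 0.0025). TMD8 values were 36.7, 42.0 and 39.5 CPM with DMSO, 37.2, 38.3 and 39.6 CPM at 150 nM, and 40.2, 38.7 and 40.1 CPM at 500 nM. The 3 groups overlapped, and the log2 changes of -0.04 ± 0.06 and 0.01 ± 0.06 were not called (adjusted p = 0.66 and 0.93). On the log2(TPM + 1) scale, however, CCL22 in TMD8 was lower at 500 nM by -0.33 (adjusted p = 0.0051), on a scale where the median of all genes moved by -0.22 against 0.04 in the edgeR fit.

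IL10, the anti-inflammatory cytokine that activated-B-cell lymphomas can secrete, fell at 500 nM in both lines. Its promoter window (chr1:206772495-206772744, minus strand, GRCh38.p14, the most upstream of 3 RefSeq starts) is shown as that of a member lowered in both lines. Capitals again mark the motifs.
IL10: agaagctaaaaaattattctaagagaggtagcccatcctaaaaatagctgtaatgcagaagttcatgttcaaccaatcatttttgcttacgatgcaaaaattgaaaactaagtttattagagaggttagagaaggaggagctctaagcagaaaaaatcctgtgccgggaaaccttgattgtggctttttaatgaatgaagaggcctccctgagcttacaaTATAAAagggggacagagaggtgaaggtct
It held TATAAA from 30 to 25 bases before the start and no match to the looser NF-kB form. Of the windows at the other IL10 starts, one held an AP-1 match, TGAGTCA, and no TATAAA, and one held none of the 4 motifs. In OCI-Ly1 IL10 was at 1.98, 1.995 and 2.06 CPM with DMSO, 1.57, 1.69 and 1.33 CPM at 150 nM, and 1.19, 0.852 and 0.922 CPM at 500 nM. The 3 groups were separate and stepped down with dose. The change was -0.39 ± 0.24 at 150 nM, not called (adjusted p = 0.63), and -1.01 ± 0.24 at 500 nM (adjusted p = 0.002). TMD8 held 45.8, 46.8 and 43.7 CPM with DMSO, 38.4, 39.1 and 38.3 CPM at 150 nM, and 25.9, 23.0 and 27.8 CPM at 500 nM, again without overlap. IL10 fell there by 0.24 ± 0.06 at 150 nM (adjusted p = 0.0064) and by 0.83 ± 0.07 at 500 nM (adjusted p = 1.1e-08). The call at 150 nM was lost with library size as the only scaling (-0.15, adjusted p = 0.065). In RefSeq IL19 overlaps IL10, and with no strand setting given their reads may not be separable; the IL19 row did not exceed a group mean of 0.269 CPM in either line.

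IL6, a growth factor for B cells and plasma cells, could be tested in TMD8 only. It was at 4.57, 5.10 and 3.87 CPM with DMSO, 7.11, 6.35 and 5.41 CPM at 150 nM, and 2.24, 3.29 and 4.60 CPM at 500 nM. All 150 nM libraries lay above those of the other groups, which overlapped each other. Neither dose was called against DMSO (0.47 ± 0.19, adjusted p = 0.053, and -0.46 ± 0.22, adjusted p = 0.073). Between the doses IL6 fell by 0.94 ± 0.21 (adjusted p = 0.0028), to 0.523 of the 150 nM level. The 150 nM difference from DMSO was called without DMSO library 2 (adjusted p = 0.045) or 150 nM library 3 (adjusted p = 0.03), and the 500 nM difference without DMSO library 3 (adjusted p = 0.044) or 500 nM library 3 (-0.72, adjusted p = 0.012).

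IL16, whose precursor is cleaved by caspase-3 to release a CD4 ligand, rose in TMD8. TMD8 values were 91.2, 79.5 and 80.1 CPM with DMSO, 93.0, 100.3 and 99.6 CPM at 150 nM, and 117, 114 and 112 CPM at 500 nM. The groups did not overlap, and the rises were 0.23 ± 0.06 (adjusted p = 0.003) and 0.45 ± 0.06 (adjusted p = 1.5e-06) on the log2 scale. On log2(TPM + 1) they were 0.06 at each dose and not called (adjusted p = 0.7 and 0.63). OCI-Ly1 had 85.6, 82.6 and 86.1 CPM with DMSO, 82.5, 79.4 and 83.0 CPM at 150 nM, and 76.6, 84.5 and 82.9 CPM at 500 nM. The groups overlapped and no change was called (-0.06 at each dose, SE 0.06). STARD5 overlaps IL16 in RefSeq, so reads of the overlap are uncertain in the same way, and its row was not called at either dose in either line.

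TGFB1, which encodes transforming growth factor beta 1, moved in opposite directions in the lines at 500 nM. Its promoter window is shown for contrast with that of IL10 (chr19:41353923-41354172, minus strand, GRCh38.p14).
TGFB1: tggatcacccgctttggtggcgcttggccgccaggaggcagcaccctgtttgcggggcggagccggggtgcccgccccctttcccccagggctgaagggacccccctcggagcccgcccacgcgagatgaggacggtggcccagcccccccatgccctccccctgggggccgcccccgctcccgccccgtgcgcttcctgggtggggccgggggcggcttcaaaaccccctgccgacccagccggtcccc
None of the 4 marked motifs was in this window, and it held 12 matches to the looser NF-kB form, counted as above and several on the same or overlapping bases. OCI-Ly1 values were 22.5, 19.3 and 19.2 CPM with DMSO, 19.0, 18.7 and 22.7 CPM at 150 nM, and 25.9, 26.3 and 25.6 CPM at 500 nM. The libraries at 500 nM lay above all others, a rise of 0.34 ± 0.09 (adjusted p = 0.0033), while the change at 150 nM, -0.02 ± 0.09, was not called. TMD8 had 207, 194 and 188 CPM with DMSO, 164, 156 and 162 CPM at 150 nM, and 136, 139 and 156 CPM at 500 nM. Both treated groups lay below DMSO, and TGFB1 fell by 0.29 ± 0.05 at 150 nM (adjusted p = 2.8e-04) and by 0.46 ± 0.06 at 500 nM (adjusted p = 1.1e-06).

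**Figure D3:**
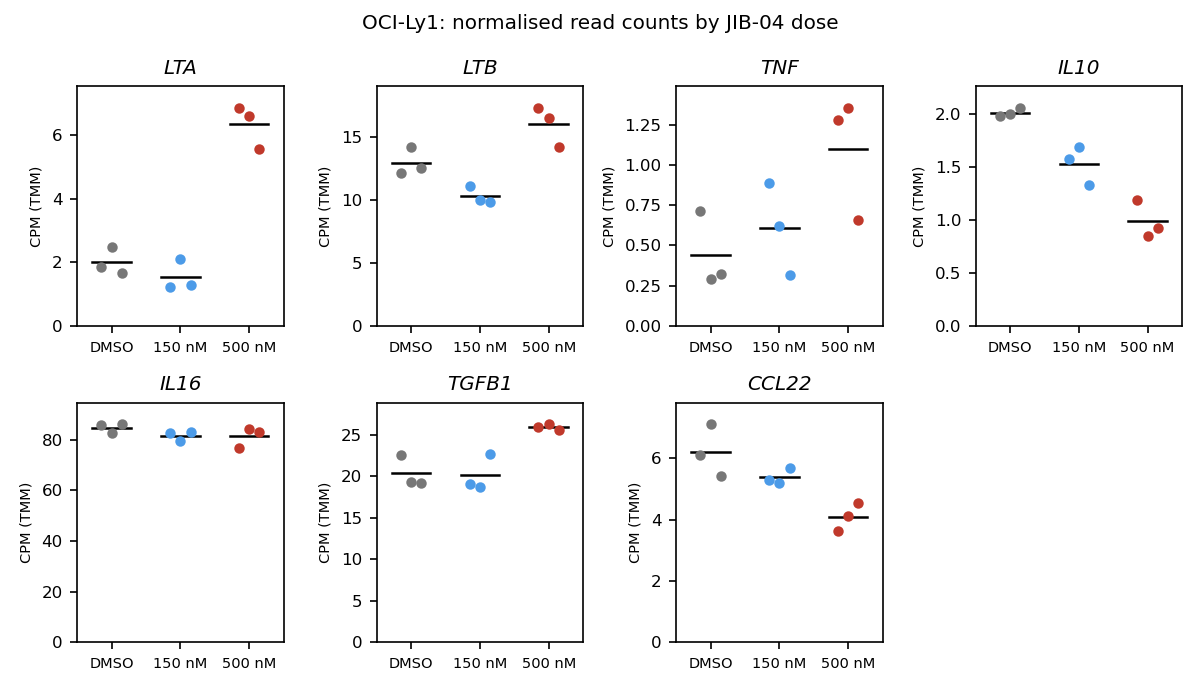
CPM (vertical axis, from 0, its own scale in each panel) of the 7 members tested in OCI-Ly1 by JIB-04 dose; dots are libraries 1 to 3 from left to right and bars the mean of 3. The 500 nM libraries of LTA, at 5.57 to 6.85 CPM, stood above all others, and those of TNF, at 0.659 to 1.36 CPM, overlapped DMSO.

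Counted over the members, 150 nM gave 0 calls among the 7 tested in OCI-Ly1 with edgeR, where 0.889% of 15638 genes were called, 0.748% higher and 0.141% lower. DESeq2 likewise called 0. LTB alone had an unadjusted p under 0.05 (0.0082 by edgeR's quasi-likelihood test). At 500 nM 4 members were higher (LTA, LTB, TNF and TGFB1) and 2 lower (CCL22 and IL10) in OCI-Ly1, where 53.6% of all genes were called, 27.7% higher and 25.9% lower. In TMD8 all 10 were tested, and 6 were higher (CCL3, CCL4, LTA, LTB, TNF and IL16) and 2 lower (IL10 and TGFB1) at each dose. Over the 15363 genes of that line 44.2% were called with the 150 nM dose, 19.2% higher and 25.0% lower, and 60.7% with 500 nM, 29.9% higher and 30.7% lower. CCL3 and CCL4 in TMD8 passed the low-count filter through treated groups alone, so their calls add no support to these counts. For TNF in OCI-Ly1 only the 500 nM group had all 3 libraries above the filter and the groups overlapped, so its call is a description. In TMD8 DESeq2 called 5 higher at 150 nM and 4 at 500 nM.

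From 150 to 500 nM, 3 members rose in OCI-Ly1 (LTA, LTB and TGFB1) and 2 fell (CCL22 and IL10), where 46.2% of all genes were called, 25.1% higher and 21.1% lower. The LTA step was 2.03 ± 0.21 (adjusted p = 5.2e-07). The falls of CCL22 (-0.40 ± 0.15, adjusted p = 0.036) and IL10 (-0.63 ± 0.25, adjusted p = 0.048) lost their calls without any of the 6 libraries but 500 nM library 3 for CCL22 (-0.32 to -0.43 in the 5 that lost it) and 500 nM library 1 for IL10 (-0.54 to -0.71). In TMD8 2 members rose between the doses (LTB and IL16) and 4 fell (TNF, IL10, IL6 and TGFB1), where 28.7% of all genes were called, 13.7% higher and 15.0% lower. IL10 fell by 0.60 ± 0.07 in this step (adjusted p = 1.0e-05). The TGFB1 fall of 0.16 ± 0.06 (adjusted p = 0.034) lost its call without 150 nM library 1 (-0.15, adjusted p = 0.091), 500 nM library 1 (-0.13, adjusted p = 0.18) or 500 nM library 2 (-0.14, adjusted p = 0.14).

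**Figure D4:**
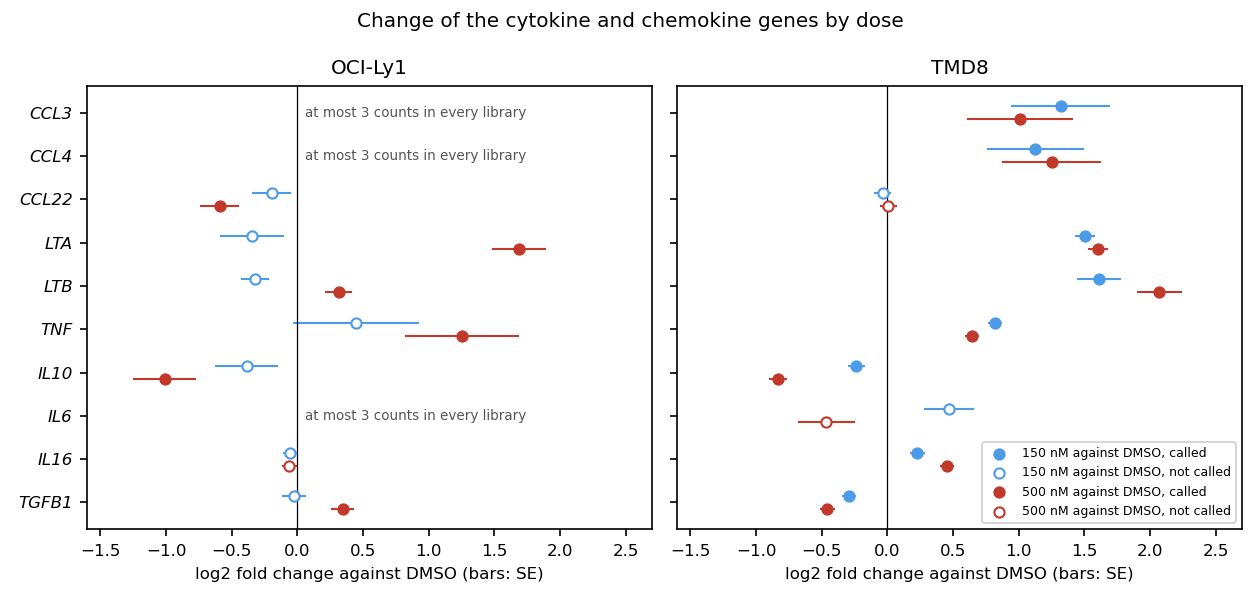
Log2 fold change against DMSO (horizontal axis, bars ± SE) of each member at 150 nM and 500 nM, OCI-Ly1 left and TMD8 right; filled points were called at an adjusted p under 0.05. In OCI-Ly1 only 500 nM points are filled, and TGFB1 lies at 0.34 there and at -0.46 in TMD8.

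The lines were then compared by testing, for each dose, the change in OCI-Ly1 minus the change in TMD8 in the fit of all libraries. At 150 nM, 3 of the 7 members above the floor in OCI-Ly1 were called lower by this difference and none higher, where 23.3% of 16604 genes were called, 8.33% lower and 15.0% higher. These were LTA (-1.83 ± 0.23, adjusted p = 4.8e-06), LTB (-1.93 ± 0.22, adjusted p = 1.5e-06) and IL16 (-0.27 ± 0.08, adjusted p = 0.016), the last not called without TMD8 DMSO library 2 (-0.23, adjusted p = 0.057) or 3 (-0.24, adjusted p = 0.051). At 500 nM, 3 were lower and 1 higher, where 46.4% of all genes were called, 18.1% lower and 28.2% higher. LTB remained lower in OCI-Ly1 (-1.73 ± 0.22, adjusted p = 3.7e-07), together with CCL22 (-0.57 ± 0.14, adjusted p = 0.0014) and IL16 (-0.48 ± 0.08, adjusted p = 3.0e-05). TGFB1 was higher (0.83 ± 0.10, adjusted p = 2.4e-07). The difference in LTA was 0.12 ± 0.19 at 500 nM (adjusted p = 0.63) and that in IL10 was -0.14 ± 0.18 (adjusted p = 0.6), neither called. The TNF difference, 0.62 ± 0.34 (adjusted p = 0.15), was called without OCI-Ly1 DMSO library 1 (1.19, adjusted p = 0.027) or 500 nM library 3 (0.88, adjusted p = 0.027). For CCL3, CCL4 and IL6 no difference is given, since OCI-Ly1 was at the floor. Without the first TMD8 DMSO library the LTB differences were -1.65 and -1.46.

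Genes around the members were read from 5 lists: receptors, processing and activation, cytokine mRNA decay, transcription and signalling, and other cytokines. At 150 nM the lists together held 1 call in OCI-Ly1, CEBPB. In TMD8 at that dose, where 19.2% of all genes were higher and 25.0% lower, 4 receptors were higher and 1 lower, and 2 processing genes were higher and 3 lower. The mRNA decay list had 3 higher and 5 lower, the transcription and signalling list 11 and 6, and the other cytokines 9 and 8. The counts below, for 500 nM, stand against 27.7% of all genes higher and 25.9% lower in OCI-Ly1, and 29.9% and 30.7% in TMD8. Of 19 receptors, 11 were tested in OCI-Ly1 at 500 nM, with 3 higher and 2 lower (median log2 change 0.14, against -0.0033 over all genes, of which 53.6% were called). In TMD8 13 were tested, with 4 higher and 1 lower (median 0.16, against 0.04 over all genes, of which 60.7% were called). IL6ST, the signal-transducing chain for IL6, rose by 1.04 ± 0.10 in OCI-Ly1 (16.05 to 33.02 CPM) and by 1.06 ± 0.10 in TMD8. IL6R, its ligand-binding chain, fell by 0.48 ± 0.13 in OCI-Ly1 and was at 21.1 and 20.3 CPM in TMD8, not called. TNFRSF14, a receptor for LTA and LIGHT, rose by 1.12 ± 0.08 in TMD8 (10.6 to 23.05 CPM) and by 1.63 ± 0.34 in OCI-Ly1. TNFRSF1B, a receptor for TNF and LTA, fell by 0.26 ± 0.05 in TMD8 (174 to 146 CPM) and by 0.77 ± 0.18 in OCI-Ly1. TGFBR2, the ligand-binding receptor of TGFB1, rose by 0.49 ± 0.05 in TMD8 (119.9 to 168.5 CPM) and was not called in OCI-Ly1 (54.07 and 51.9 CPM). IL10RB rose by 0.25 ± 0.07 in OCI-Ly1 and IL10RA, the ligand-binding IL10 chain, was called in neither line. ENG, a TGFB1 co-receptor, rose by 0.65 ± 0.23 in TMD8 and was not called in OCI-Ly1. TNFRSF1A, CD9 and TGFBR1 were called in neither line, and CD4 and TGFBR3, tested in TMD8, were not called.

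Of the 11 processing and activation genes, 4 of 10 tested were higher and 2 lower in OCI-Ly1 (median 0.17), and 5 of 11 were higher and 3 lower in TMD8 (median 0.24), against 53.6% and 60.7% of all genes called. FURIN, the protease that cleaves the TGFB1 precursor, rose by 0.85 ± 0.15 in OCI-Ly1 from 3.45 to 6.19 CPM, and ITGB8, an integrin chain that activates latent TGFB1, fell by 0.64 ± 0.18. In TMD8 LRRC32, which holds latent TGFB1 on the cell surface, rose by 1.77 ± 0.21 from 1.86 to 6.42 CPM. LRRC33, a related holder of latent TGFB1, fell by 0.58 ± 0.06 from 72.8 to 48.8 CPM. Of the 12 genes of cytokine mRNA decay and stability, 2 were higher and 4 lower in OCI-Ly1 (median 0.05), and 3 higher and 8 lower in TMD8 (median -0.23), against 25.9% and 30.7% of all genes lower. ZFP36, which binds the AU-rich elements of TNF and other mRNAs and promotes their decay, rose by 0.69 ± 0.12 in OCI-Ly1, and ZC3H12D fell by 0.59 ± 0.07. At 150 nM the change of ZFP36 in OCI-Ly1 minus that in TMD8 was -0.66 ± 0.15 (adjusted p = 0.002). In TMD8 ZFP36L2 rose by 0.87 ± 0.05 and HNRNPD fell by 0.71 ± 0.05.

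Of the 23 transcription and signalling genes, 22 were tested in each line. At 500 nM 13 were higher and 4 lower in OCI-Ly1 (median 0.30), and 12 higher and 8 lower in TMD8 (median 0.25), against 27.7% and 29.9% of all genes higher. CEBPB, a factor that binds the IL6 and other cytokine promoters, rose by 4.10 ± 0.12 in OCI-Ly1 from 3.26 to 55.7 CPM. At 150 nM, however, its change in OCI-Ly1 minus that in TMD8 was -1.09 ± 0.18 (adjusted p = 1.0e-04). MYD88, the Toll-like receptor adaptor, fell in OCI-Ly1 at 500 nM by 0.94 ± 0.09 from 28.02 to 14.6 CPM. In TMD8 FOS, an AP-1 subunit, rose by 4.34 ± 0.22 from 1.25 to 25.5 CPM. BIRC3, an NF-kB target and regulator, fell by 1.17 ± 0.08 from 100.9 to 44.5 CPM there, and in OCI-Ly1 it stood at 236 CPM with DMSO and 241 CPM at 500 nM.

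Of 61 other cytokine genes, 25 were tested in OCI-Ly1, with 8 higher and 4 lower (median 0.11), and 35 in TMD8, with 16 higher and 9 lower (median 0.39), against 53.6% and 60.7% of all genes called. FLT3LG, a ligand for the FLT3 receptor, rose by 1.01 ± 0.26 in OCI-Ly1 from 2.65 to 5.15 CPM, and MIF fell by 0.31 ± 0.06 from 296 to 238 CPM. In TMD8 TNFSF9, the 4-1BB ligand, rose by 1.45 ± 0.10 from 25.1 to 68.7 CPM, and CXCL13, which attracts B cells to follicles, fell by 1.18 ± 0.12 from 15.9 to 6.92 CPM.

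**Figure D5:**
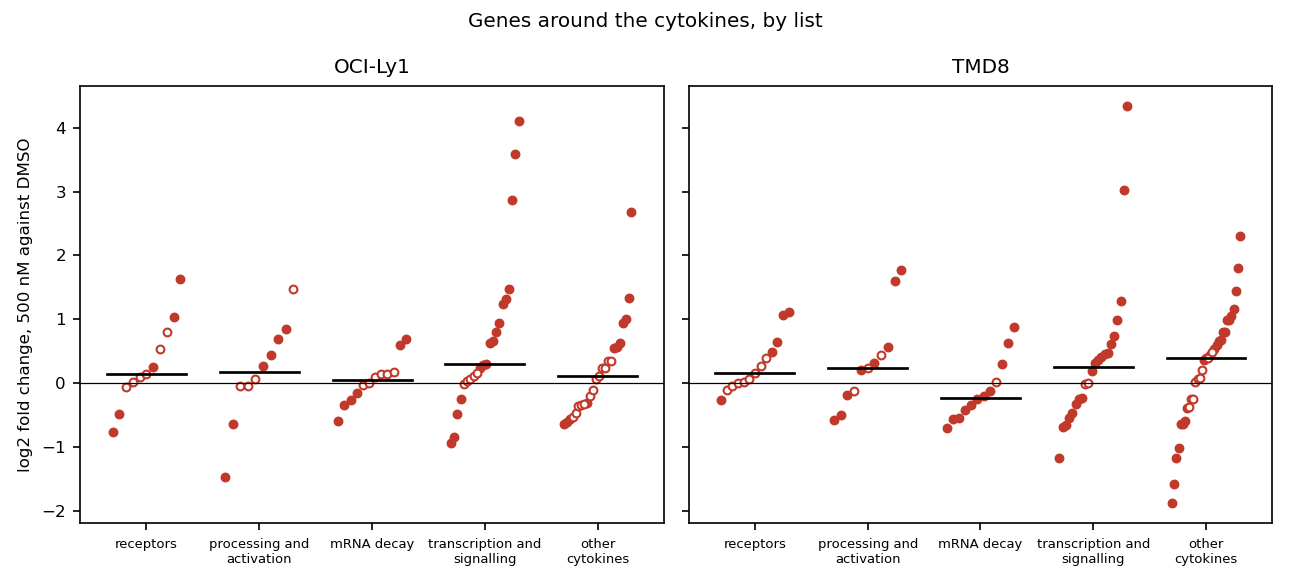
Log2 fold change at 500 nM against DMSO (vertical axis) of the tested genes of each list, sorted within the list, OCI-Ly1 left and TMD8 right; filled points were called, and black bars are list medians over all tested genes. One gene in OCI-Ly1 (CXCL10) and 2 in TMD8 (OSM and TNFSF8) are left off because a group had at most 3 counts in each library; the mRNA decay median lies at 0.05 in OCI-Ly1 and -0.23 in TMD8.

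Genes whose pattern was most like that of a member were found by Pearson's r of log2 CPM over the 18 libraries with each line's mean removed, among up to 9949 genes. The libraries share the dose groups, so r is a description. LOC400657 (r = 0.952) and HERPUD2 (0.951) were nearest to LTA, UBE2Q2P1 (0.961) and HEXIM1 (0.953) to LTB, and AHRR (0.911) and SMPD3 (0.896) to TNF. ENTPD1 (0.955) and GYS1 (0.952) were nearest to IL10, and CSDA (0.927) and ZDHHC5 (0.918) to TGFB1. Like LTB, HEXIM1 rose in TMD8, by 0.76 at 150 nM (adjusted p = 1.6e-07) and 1.17 at 500 nM (adjusted p = 1.1e-10), and in OCI-Ly1 it changed by -0.11 and 0.21 and was not called. CSDA rose by 0.54 in OCI-Ly1 at 500 nM (adjusted p = 9.9e-06) and fell by 0.72 in TMD8 (adjusted p = 2.0e-09).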

How the data were processed

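The authors deposited estimated counts and TPM per gene for each line. Per the submitters' processing notes, kallisto 0.46.0, R 4.3.1, DESeq2 1.40.2 and the build hg19 were used; their roles, the annotation and the strand setting are not given in the sources used here. Per the labels, ribosomal RNA was depleted. Here the deposited estimated counts were rounded and tested with edgeR 4.0.16 (quasi-likelihood, TMM, filterByExpr with a minimum count of 10, R 4.3.3) over the 9 libraries of a line, or all 18 for differences between lines, with Benjamini-Hochberg adjustment. SE is the absolute log2 fold change over the square root of F. The deposited TPM values were used for levels and, as log2(TPM + 1) and log2(TPM + 0.1) in limma 3.58.1, as alternatives within a line. Other alternatives were DESeq2 1.42.0, library size scaling, no filter, the 6 libraries compared (within a line), a replicate block and each library left out. The code was tested on simulated data. Marker lists for B-lineage, T, NK, myeloid and plasma cells were summed in CPM. Named list genes are the called genes with the largest rise and fall at 500 nM, with at least 5 CPM in the higher group and every library compared above 3 counts. Tested receptors of the members, near-identical copies and the 2 genes of most similar pattern are also named. Of the nearest genes on each side, those called at 500 nM against DMSO are named. The members and lists were chosen with earlier results of these data known.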

Additional observations from a re-analysis of the deposited data

Results flagged for a closer look

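The edgeR test of whether the response to JIB-04 differed between lines singled out 7 results. Values are the log2 change in OCI-Ly1 minus that in TMD8, so a negative value can also be a fall in OCI-Ly1. At 150 nM these were LTA at -1.83, LTB at -1.93 and IL16 at -0.27. LTA and LTB were called higher in TMD8 and not called in OCI-Ly1 at this dose, and the IL16 difference lost its call without TMD8 DMSO library 2 (-0.23, adjusted p = 0.057) or 3 (-0.24, adjusted p = 0.051). At 500 nM they were CCL22 at -0.57, IL16 at -0.48, LTB at -1.73 and TGFB1 at 0.83. CCL22 fell in OCI-Ly1 at this dose and was not called in TMD8. TGFB1 is the member called in opposite directions in the lines.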

How the results depend on the processing

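The number of members called higher in OCI-Ly1 at 500 nM was 4, or 2 on centred log2(TPM + 1) and 2 to 4 with a library left out. The 2 called lower from 150 to 500 nM there became 0 with DESeq2 or library size, 1 without a filter, on log2(TPM + 1), on log2(TPM + 0.1) or with the 6 libraries compared, and 0 to 1 with a library left out. In TMD8, members lower at 150 nM numbered 1 with library size in place of 2, and lower at 500 nM 4 on both TPM scales in place of 2. With a library left out, the 6 higher there became 5 to 7 at 150 nM and 4 to 6 at 500 nM. The 2 lower at 500 nM became 2 to 3. From 150 to 500 nM the 2 higher became 1 with DESeq2 or centred TPM, 0 on both other TPM scales and 1 to 2 with a library left out, and the 4 lower became 2 to 4. By the difference between lines, 1 member was higher at 150 nM with DESeq2 or no filter and 0 to 1 with a library left out, 1 to 2 at 500 nM. The 3 lower by that difference at 150 nM became 2 to 3 with a library left out. With DMSO, 0 to 1 were higher in OCI-Ly1 with a library left out. The causes were not tested.

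Changes of direction occurred in values that edgeR did not call. For log2(TPM + 1) and log2(TPM + 0.1), in turn, TGFB1 in OCI-Ly1 at 150 nM was 0.014 and 0.015, IL16 in OCI-Ly1 0.076 and 0.080 at 500 nM and 0.10 and 0.11 between doses, and in TMD8 CCL22 was -0.33 and -0.36 at 500 nM (adjusted p = 0.0051 and 0.0049, called) and -0.15 and -0.17 between doses, CCL4 -0.092 and -0.17 and LTA -0.11 and -0.12 between doses. With library size IL16 in OCI-Ly1 was 0.026 at 500 nM and 0.074 between doses, IL16 between lines with DMSO 0.052, and CCL22 in TMD8 0.048 at 150 nM. CCL22 in TMD8 at 500 nM was -0.015 with DESeq2, -0.016 without a filter and -0.073 on centred TPM. With a library left out the ranges were -0.11 to 0.060 for TGFB1 in OCI-Ly1 at 150 nM, -0.041 to 0.029 for IL16 in OCI-Ly1 between doses, -0.085 to 0.0085 for CCL22 in TMD8 at 150 nM and -0.041 to 0.053 at 500 nM, -0.63 to 0.11 for CCL3 and -0.28 to 0.37 for CCL4 between doses in TMD8, and -0.74 to 0.21 for TNF by the difference between lines at 150 nM.

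Same-numbered libraries did not all deviate together (r from -0.05 to 0.15 in OCI-Ly1 and -0.05 to 0.14 in TMD8). Differently numbered pairs reached at most 0.04 and 0.10, so whether the numbers pair some libraries was not settled. With the replicate block the members lower from 150 to 500 nM in OCI-Ly1 numbered 1 in place of 2, and no other count of members moved by as large a ratio. In OCI-Ly1 the floor of 3 counts (0.0894 to 0.176 CPM) limits what can be said of CCL3, CCL4 and IL6.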
